A study of Mus musculus with 9 samples.

Results

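The counts on 2 abundant gene IDs of mouse chromosome 7 were followed across colon libraries: ENSMUSG00000109336, which the annotation lists as Samd4b, and ENSMUSG00000002602, which it lists as Axl. They are 2 of the 56941 gene IDs in the count tables. They were selected on their high mean counts over these mice and on the exons that lie beneath them once moved along the chromosome, so their level and that position are descriptions without a test. The colon RNA came from male Balb/c mice, 6 weeks old at the start, which received by gavage either acrylamide (AA, 0.1 mg/kg per day for 4 weeks) or only the vehicle, phosphate-buffered saline (PBS). Libraries of 4 PBS and 5 AA mice were used (the study names 1 more PBS mouse, not analysed here), and each library came from colon tissue digested with collagenase and dispase, so it mixes cell types. Fewer cells of a type and less RNA per cell cannot be told apart in such samples.

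In the annotation, Samd4b is an RNA-binding protein of the Smaug family that represses translation, and Axl is a receptor tyrosine kinase of the TAM family, which takes part in the clearance of dying cells. Neither is known as one of the most abundant messages of the colon. Fcgbp is a large, mucin-like protein that goblet cells secrete into the colonic mucus. Ceacam1 is an adhesion molecule of the carcinoembryonic antigen family, found on the apical surface of enterocytes and on immune cells. Both are well known as highly expressed in the colonic epithelium.

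The counts of many IDs in these tables do not follow the gene they are listed under. That reads of Fcgbp and Ceacam1 were counted under both IDs is a hypothesis from positions, and the identity of the reads was not tested. On GRCm38 in GENCODE M21, ENSMUSG00000109336 lies on the minus strand of chromosome 7 from 28399522 to 28598144, and its 13 merged exons cover 4672 bp. ENSMUSG00000002602 lies on the minus strand from 25757273 to 25788705, with 19 merged exons and 5033 bp. Moved by -299950 bp, the exons of the first ID covered 1586 bp of exons of Fcgbp (chromosome 7 from 28071236 to 28120862, plus strand), of which 1191 bp are coding. The exons of the second ID, moved likewise, covered 483 bp of exons of Ceacam1 (chromosome 7 from 25461707 to 25477603, minus strand), of which 268 bp are coding. Each ID met the exons of no other gene at that distance.

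For each of Fcgbp and Ceacam1, the longest stretch of coding bases that lay under the moved exons at both distances used here is shown, as an example of sequence that would have been counted under that hypothesis. Shorter coding stretches of Fcgbp also lay under them at both distances. They were read from the GENCODE M21 transcripts (GRCm38), 5′ to 3′ on the gene's strand, and capitals mark the bases under the moved exons. The Fcgbp stretch is at chr7:28101198-28101327 on the plus strand, and the Ceacam1 stretch is at chr7:25463824-25463900 on the minus strand. The reference strain is not Balb/c.
Fcgbp: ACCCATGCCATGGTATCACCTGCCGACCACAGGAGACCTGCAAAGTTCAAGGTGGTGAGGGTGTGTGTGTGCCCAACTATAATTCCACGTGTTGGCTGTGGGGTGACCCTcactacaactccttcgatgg
Ceacam1: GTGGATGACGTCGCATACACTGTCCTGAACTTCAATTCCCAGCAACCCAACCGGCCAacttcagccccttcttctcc
The capitals span 110 bases of Fcgbp and 57 of Ceacam1.

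Whether other IDs nearby followed the same displacement was examined with both IDs left out. In the 10 Mb around ENSMUSG00000109336, 505 other IDs were moved together by distances up to 400 kb in either direction. At each distance the mean count of an ID was correlated, across IDs, with the bp of protein-coding gene exons beneath it. Both were taken on a log10 scale, after a small constant was added to each. The correlation was highest at -300600 bp (Pearson r = 0.61, Spearman rho = 0.66), against 0.58 at -299950 bp and 0.28 at the IDs' own place. The highest value more than 5 kb away from the maximum was 0.47. Around ENSMUSG00000002602, with 500 IDs, the maximum was at the same -300600 bp (r = 0.60), with 0.24 at the own place. The windows overlap, and IDs within a window are not independent replicates, so these are descriptions. The maximum was at -300650 bp in both windows where only exons on the ID's own strand were taken, with lower values (r = 0.49 and 0.48). Where only exons on the opposite strand were taken, as Fcgbp is to the Samd4b-listed ID, it was at another distance, -296250 bp (r = 0.39 and 0.42).

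**Figure D1:**
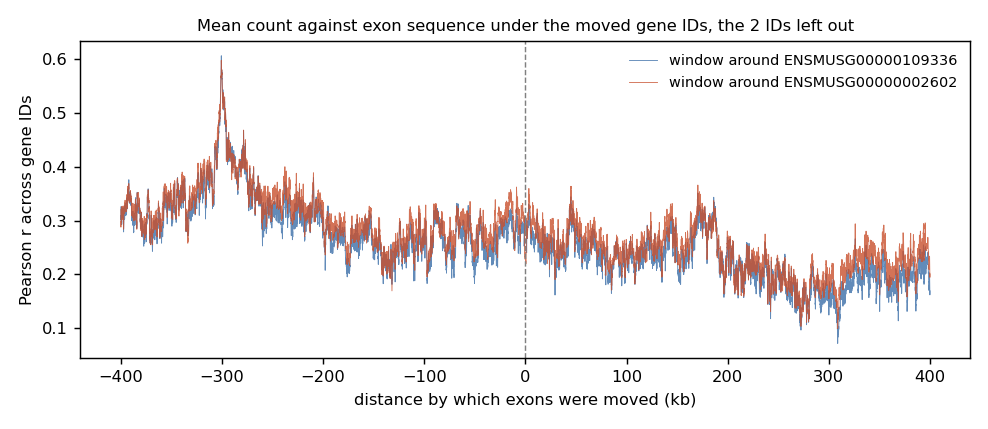
Pearson correlation across gene IDs (y axis) between the mean count and the protein-coding exon sequence beneath the IDs, both on a log10 scale. All exons were moved by the distance on the x axis (kb), in the 10 Mb around each of both IDs. Both lines are highest at -300600 bp, with a lower maximum at -278600 bp (r = 0.47 in each), and the dashed line marks the IDs' own place, where r was 0.28 and 0.24.

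Counts of the same IDs describe this fit in another way. They are not a second observation, since the distance was chosen on these IDs. Of the 505 IDs in the first window, 229 had protein-coding exons beneath them when moved by -300600 bp, and 36.7% of these reached no more than 3 counts in any mouse. Of the 276 IDs that met no such exon, 92.8% were at that floor. At -299950 bp the shares were 37.4% of 222 and 90.8% of 283. At the IDs' own place they were 58.5% of 330 and 84.0% of 175.

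At -300600 bp, ENSMUSG00000109336 covered 1009 bp of Fcgbp exons and ENSMUSG00000002602 covered 1129 bp of Ceacam1 exons, of which 620 bp and 255 bp are coding. The first ID and Fcgbp are on opposite strands, and the second ID and Ceacam1 are on the same strand. The libraries were stranded, and a count that used strand would not place reads of both genes on these IDs by the same rule. Whether strand was used in the counting is not given in the sources used here, and this was not tested. Both distances put each ID on the same gene. Ceacam1 has a near-identical paralog, Ceacam2, and Fcgbp holds repeated domains, so reads of either could have been split or set aside in the counting.

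**Figure D2:**
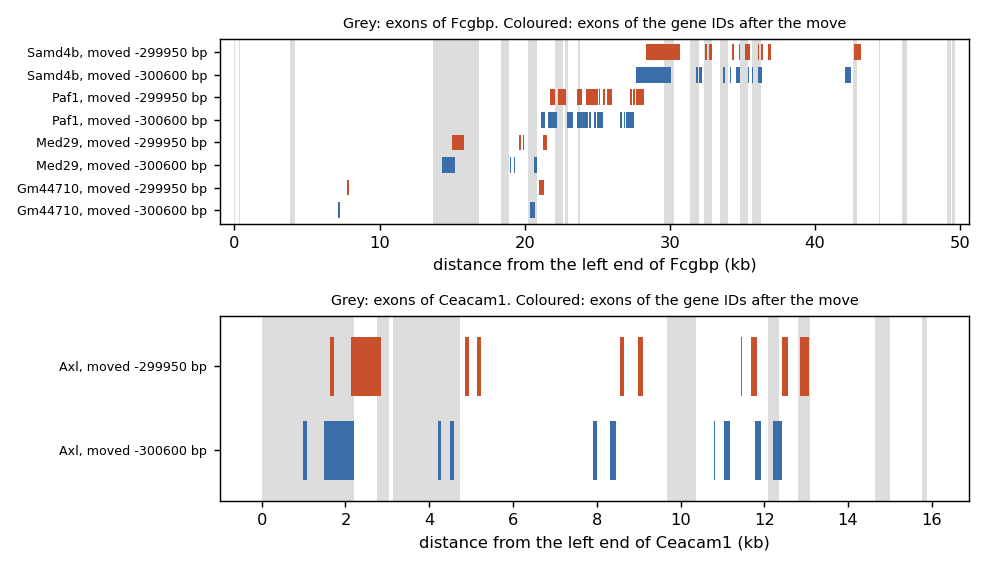
Exons of the gene IDs after the move (red -299950 bp, blue -300600 bp) over the exons of Fcgbp (grey, upper panel) and Ceacam1 (grey, lower panel). The x axis is the distance in kb from the left end of each gene. Exons of the IDs listed as Samd4b, Paf1 and Med29 meet Fcgbp at both distances, Gm44710 meets it only at -300600 bp, and of all IDs only Axl meets Ceacam1.

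The IDs listed under the names Fcgbp and Ceacam1 held almost nothing. ENSMUSG00000047730, listed as Fcgbp, had 1 count in PBS replicate 1 and between 10 and 30 counts in the other 8 mice. ENSMUSG00000074272, listed as Ceacam1, was at 0 in all 9 mice. Moved by either distance, the Fcgbp-listed ID met exons of Zfp626 (480 bp or 439 bp) and the Ceacam1-listed ID met no exon.

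Total counts per mouse lay between 1744532 and 2715806. By mean count over the 9 mice, ENSMUSG00000109336 ranked 5 of all IDs (mean count 30135) and ENSMUSG00000002602 ranked 6 (mean count 21693). The IDs just above and below them were those listed as Trim56 (38821) and Lgals4 (18835). They held 1.35% and 0.974% of all counts, and their counting error is small beside the spread between mice.

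One PBS library stood apart. PBS replicate 1 had a count on 10267 IDs, against 13827 to 15143 in the other mice. Over the 7423 IDs that passed the filter on low counts, its normalized count (CPM, counts per 1000000 of the library total scaled by edgeR's TMM factors) was below every other mouse for 53.1% and above every other mouse for 32.3%. PBS replicate 2, AA replicate 2 and AA replicate 5 held 1.25%, 4.08% and 15.9% of their counts on the IDs listed as Matn4 and Dbndd2, which had at most 6 counts each in any other mouse. Results are given with and without PBS replicate 1, and those without the other 3 mice follow in the closing section.

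ENSMUSG00000109336 had 334, 6410, 38880 and 39952 counts in PBS replicates 1 to 4, which is 265.3, 3683, 15946 and 15123 CPM. In AA replicates 1 to 5 it had 49204, 38200, 30554, 41230 and 26448 counts, or 21436, 15062, 16247, 17375 and 10781 CPM. PBS replicates 1 and 2 were thus far below all other mice, while PBS replicates 3 and 4 lay within the AA range, so the groups overlapped. In PBS replicate 1 the ID took 0.0158% of the library (95% Wilson interval 0.0142 to 0.0176, counting error only) and ranked 1027, whereas its share in the other mice lay between 0.367% and 2.20%.

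PBS mice had a mean of 8754 ± 7960 CPM (SD, n = 4), and AA mice had one of 16180 ± 3855 CPM (SD, n = 5). The log2 fold change of ENSMUSG00000109336 (Samd4b) was 0.89 (standard error 0.806), with an adjusted p of 0.618 by the quasi-likelihood test of edgeR over 7423 IDs. The median log2 fold change of all IDs tested was 0.12. On the scale of mean log2 CPM, on which low values weigh more, AA mice were higher by 2.01, a difference within their spread (exact permutation test over 126 splits, two-sided, p = 0.143, smallest possible p 0.0159). Without PBS replicate 1 the log2 fold change was 0.48 (adjusted p = 0.685 in edgeR's test), and the difference in mean log2 CPM was 0.72 (exact permutation test, p = 0.321). The remaining PBS mice still differed among themselves, 11584 ± 6855 CPM (SD, n = 3), because of replicate 2.

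ENSMUSG00000002602 had 666, 13611, 21085 and 23101 counts in PBS replicates 1 to 4, or 528.9, 7821, 8648 and 8744 CPM. In AA replicates 1 to 5 it had 25663, 34070, 19439, 29040 and 28566 counts, or 11180, 13434, 10337, 12238 and 11645 CPM. All 5 AA values lay above all 4 PBS values, and PBS replicates 2 to 4 lay close together. PBS replicate 1 was again far below, with 0.0315% of its library (95% Wilson interval 0.0292 to 0.0340) and rank 594, against ranks of 5 or 6 in the other mice.

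PBS mice had a mean of 6436 ± 3959 CPM (SD, n = 4), against 11767 ± 1162 CPM (SD, n = 5) for AA mice. The log2 fold change of ENSMUSG00000002602 (Axl) was 0.87 (standard error 0.596), with an adjusted p of 0.547 by the same edgeR test. The difference in mean log2 CPM was 1.48, with AA higher in all 5 mice than in any PBS mouse (two-sided exact permutation test, p = 0.0159, the smallest that 4 mice against 5 allow, not adjusted). Without PBS replicate 1 the PBS mean was 8404 ± 507.4 CPM (SD, n = 3), and the groups still did not overlap. The ratio of the group means was then 1.40, the log2 fold change 0.48 (standard error 0.185, adjusted p = 0.466 in edgeR's test), and the difference in mean log2 CPM 0.48 (exact permutation test, p = 0.0357, the smallest that 3 against 5 allow). The size of the difference thus depended on PBS replicate 1. Its direction and the lack of overlap could not, since groups that lie apart stay apart when a mouse is left out. For the same reason the permutation p was bound to be the smallest possible with and without that mouse.

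Over all 7423 IDs tested, 0 had an adjusted p under 0.05 in edgeR's test (0%), and 867 had an unadjusted p under 0.05 (11.7%). DESeq2 gave 8 IDs past the adjusted threshold. Neither ID was among the 135 (1.82%) that were higher in AA mice at an unadjusted p under 0.05. The Axl-listed ID did pass that unadjusted threshold, higher in AA mice, in 3 other settings. These were edgeR without PBS replicate 1 (adjusted p = 0.466), limma-voom (adjusted p = 0.399) and edgeR with the low-count filter removed (adjusted p = 0.611). A log2 fold change of 0.8 or more, which both IDs had, was found for 8.53% of the IDs. Groups did not overlap for 5.04% of the IDs in either direction and for 2.42% with AA higher, and without PBS replicate 1 for 2.73% of the same IDs. ENSMUSG00000002602 was 1 of the 180 such IDs, and ENSMUSG00000109336 was not.

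**Figure D3:**
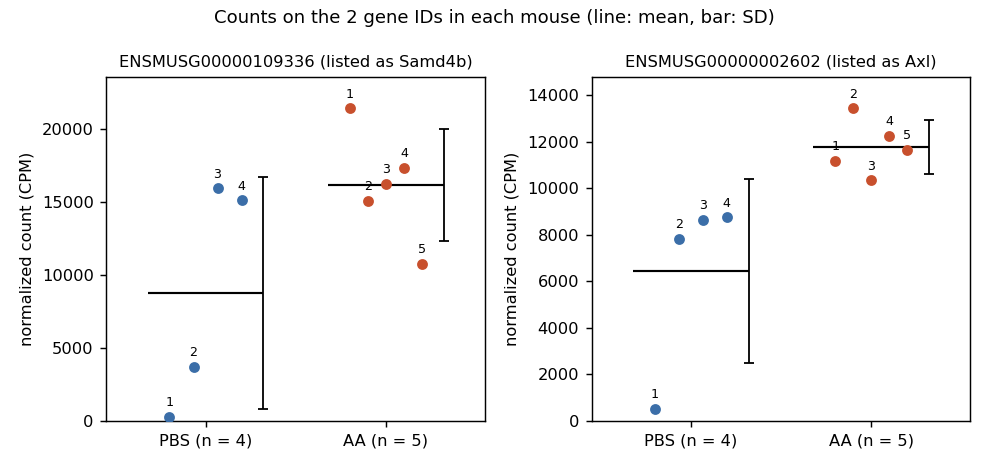
Normalized count (CPM, linear y axis) of each ID in PBS mice (blue, n = 4) and AA mice (red, n = 5). Points are mice, labelled with their replicate number, lines are group means and bars are the SD. For the Samd4b-listed ID, PBS replicates 3 and 4 lie among the AA mice. For the Axl-listed ID all AA mice, from 10337 CPM upwards, lie above all PBS mice, whose highest value is 8744 CPM.

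The ratio of both IDs within a library is free of the scaling between libraries. The Samd4b-listed ID had 0.502, 0.471, 1.84 and 1.73 counts per count of the Axl-listed ID in PBS replicates 1 to 4. In AA replicates 1 to 5 the ratio was 1.92, 1.12, 1.57, 1.42 and 0.926. PBS replicates 1 and 2 therefore shared a low ratio, although their levels of either ID differed by more than 10-fold. PBS mice had a mean log2 ratio of -0.10 ± 1.09 (SD, n = 4), and AA mice had one of 0.43 ± 0.41 (SD, n = 5), a difference of 0.53 that was within the spread (two-sided exact permutation test, p = 0.333). Over the 8 mice without PBS replicate 1, log2 CPM of the 2 IDs had a Pearson r of 0.54 (exact permutation test, p = 0.177) and a Spearman rho of 0.24 (exact permutation test, p = 0.582), adjusted p = 0.177 and 0.582 over 5 relations. Without PBS replicate 2 and AA replicate 5, the mice farthest from the median, r was 0.20.

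Within 200 kb of ENSMUSG00000109336 lie 38 other IDs, and 21 of them never exceeded 3 counts. Of the 38, 3 had a mean count of 1000 or more, those listed as Paf1, Gm44710 and Med29. These are the 3 of the 38, apart from Plekhg2 with 4 to 14 counts per mouse, whose exons moved by -300600 bp met exons of Fcgbp. Paf1 (ENSMUSG00000003437) is a subunit of a transcription elongation complex, Med29 (ENSMUSG00000003444) a subunit of the Mediator complex, and Gm44710 (ENSMUSG00000109455) an antisense gene. Paf1, Med29 and Gm44710 covered 312, 1086 and 346 bp of Fcgbp exons. Paf1 and Gm44710 lie on the plus strand, as Fcgbp does, and Med29 lies on the minus strand, as the Samd4b-listed ID does. A count that used strand would not place Fcgbp reads on IDs of both strands. They were found from where Fcgbp lies, and they were among the IDs on which the distance of -300600 bp was chosen. Their overlap with Fcgbp at that distance is therefore a description and no separate support.

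Paf1 had 2, 949, 3961 and 5075 counts in PBS replicates 1 to 4 and 5447, 6527, 3819, 5516 and 4195 in AA replicates 1 to 5. Med29 had 1, 564, 2358 and 2909 counts in PBS mice and 2897, 4177, 2361, 3349 and 2811 in AA mice. Gm44710 had 3, 625, 2885 and 3602 counts in PBS mice and 3624, 4787, 2589, 3870 and 3171 in AA mice. All 3 were near 0 in PBS replicate 1 and low in PBS replicate 2. The Samd4b-listed ID was also lowest in these mice, but it still had 334 counts in PBS replicate 1. In the other 8 mice the Samd4b-listed ID had between 5.85 and 9.82 counts per count of Paf1, between 9.15 and 17.0 per count of Med29 and between 7.98 and 13.6 per count of Gm44710. In PBS replicate 1, whose 3 neighbouring IDs were at the floor of 3 counts or below, the same ratios were 167, 334 and 111.3, each far above the range of the other 8 mice. Gm44710 and Med29 share 64 bp of exon in the annotation. Paf1 shares none with Gm44710, Med29 or Samd4b, and Med29 none with Samd4b.

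PBS mice had 1023 ± 901.8 CPM of Paf1 (SD, n = 4), and AA mice had 2202 ± 336.8 CPM (SD, n = 5). The log2 fold changes of Paf1, Med29 and Gm44710 were 1.11, 1.17 and 1.09, and their adjusted p was between 0.608 and 0.618 in edgeR's test. AA mice did not overlap with PBS mice for Med29 (two-sided exact permutation test, p = 0.0159), and they overlapped for Paf1 and Gm44710 (p = 0.0317 for each in the exact permutation test). Without PBS replicate 1 the permutation p was 0.0357 for Med29 and 0.0714 for both others. Over the 8 mice without PBS replicate 1, log2 CPM of the Samd4b-listed ID had a Pearson r of 0.95 with Paf1, 0.91 with Med29 and 0.93 with Gm44710 (exact permutation p = 0.0268, 0.0945 and 0.0552, adjusted p = 0.0671, 0.118 and 0.0919 over 5 relations). Spearman's rho was 0.55, 0.48 and 0.52 (exact permutation p = 0.171, 0.243 and 0.197, adjusted p = 0.304 for each). Without PBS replicate 2 and AA replicate 5 r was 0.32, 0.02 and 0.14, so these relations rest on those mice. The Axl-listed ID had an r of 0.74 with Paf1 (exact permutation p = 0.0106, adjusted p = 0.0531) and a rho of 0.81 (p = 0.0218, adjusted p = 0.109), and r was 0.56 without PBS replicate 2 and AA replicate 2. All 5 relations took PBS and AA mice together without regard to group, so a difference between the groups enters them.

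**Figure D4:**
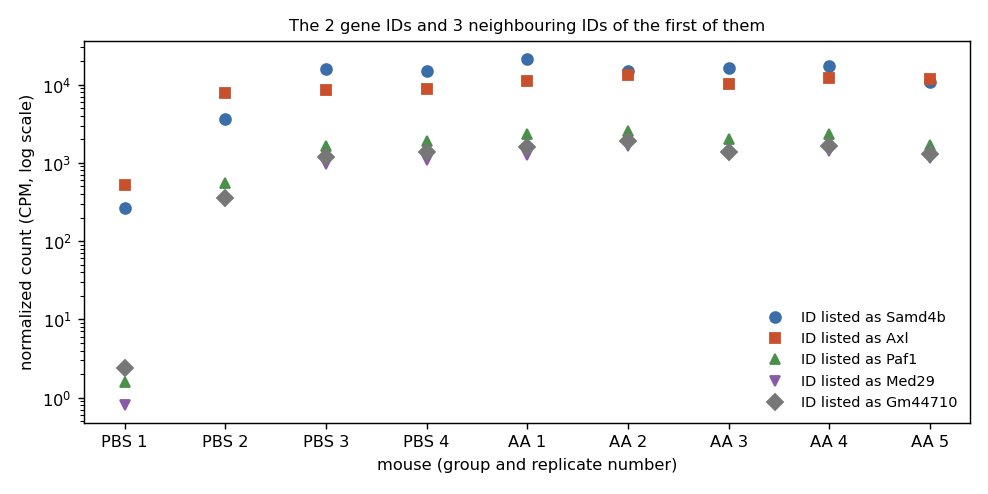
Normalized count (CPM, log scale) of the 2 gene IDs and of the 3 IDs listed as Paf1, Med29 and Gm44710, in each mouse. The 4 plotted IDs that meet Fcgbp after the move (Plekhg2, with at most 14 counts, is not plotted) are lowest in PBS replicate 1 and next lowest in PBS replicate 2, whereas the Axl-listed ID has 7821 CPM in PBS replicate 2, close to PBS replicates 3 and 4.

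The number of counts per bp of Fcgbp exon beneath an ID was uneven. At -300600 bp the mean count per overlapped bp was 29.9 for the Samd4b-listed ID, 12.6 for Paf1, 8.08 for Gm44710 and 2.19 for Med29. For the Axl-listed ID it was 19.2 per bp of Ceacam1 exon. These values depend on the distance. At -299950 bp they were 19.0 for the Samd4b-listed ID, 6.26 for Paf1, 2.71 for Med29 and 44.9 for the Axl-listed ID. Gm44710 met no exon of Fcgbp there. The Samd4b-listed ID, Paf1 and Med29 came in the same order at both distances, but the Axl-listed ID changed place. An order of all these IDs can therefore not be read from them. Of the 26 other IDs within 200 kb of ENSMUSG00000002602, 0 had a mean count of 1000 or more and 10 never exceeded 3 counts. The highest was Hnrnpul1, with 1255 counts in PBS replicate 1 and 390 to 650 in the other mice. No other ID met exons of Ceacam1 after the move, so there was no second ID to set beside the Axl-listed one.

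Among the 7423 IDs tested, those whose log2 CPM over the 9 mice was most like the Samd4b-listed ID were listed as Abca17, Nup133, E430018J23Rik, Cpt1c and Tbc1d10b (Pearson r between 0.993 and 0.998, with 0.953 to 0.994 over the 8 mice without PBS replicate 1). Those most like the Axl-listed ID were Abcf1, Zfp13, Ces1f, Gsr and Frmd8 (r between 0.996 and 0.998, with 0.861 to 0.944 without PBS replicate 1). These values are a description, since the IDs were the highest of all. An r of 0.95 or more was reached by 588 IDs for the first and 1445 IDs for the second with all 9 mice, and by 28 and 2 IDs without PBS replicate 1.

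Marker genes were read by their listed symbols, which carry the same doubt as both IDs. Of 20 goblet cell genes 5 could be tested and 9 never exceeded 3 counts. Muc2, the main secreted mucin, had a log2 fold change of 0.63 (adjusted p = 0.453 in edgeR's test), and its CPM was 148.5 in PBS replicate 1, 152.3 to 322.9 in the other PBS mice and 271.7 to 473.3 in AA mice. Summed over the list, PBS replicate 1 had 20153 CPM, against 2340 to 6980 in the other PBS mice and 2020 to 5408 in AA mice, nearly all of it on Spink4, a trypsin inhibitor of goblet cells. Agr2, Retnlb, Spdef, Klk1 and Xbp1 were at 0 in all mice. Of 15 genes of the Ceacam family 5 could be tested and 6 were at 0 in all mice, and the family's highest member, Ceacam20, had 630.6 CPM in PBS replicate 1 and 266.6 to 442.6 CPM in the others. Ceacam2, the paralog of Ceacam1, had 48.4 CPM in PBS replicate 1, 59.2 to 100.7 in the other PBS mice and 79.5 to 118.1 in AA mice (log2 fold change 0.36, adjusted p = 0.590).

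Of the 5 TAM receptors and ligands 4 could be tested, and the members other than Axl summed to 23.8 CPM in PBS replicate 1, 28.0 to 51.1 in the other PBS mice and 26.6 to 35.1 in AA mice, far below the Axl-listed ID. Samd4, the other Smaug gene, had 0 CPM in PBS replicate 1 and 15.4 to 23.6 CPM in the others. Of 15 colonocyte genes 6 could be tested, with sums of 497.2 CPM in PBS replicate 1, 445.8 to 679.1 in the other PBS mice and 450.9 to 638.0 in AA mice, and Car1, Krt8, Krt19 and Epcam were among the 6 at 0 in all mice. The colonocyte genes with the highest counts were Cyp2c55, a cytochrome P450 (log2 fold change 0.02), Cdhr5, a brush border cadherin (-0.50), and Muc3, a membrane mucin (0.44). Fibroblast genes (3 of 7 tested) summed to 2392 CPM in PBS replicate 1 and 1111 to 1529 CPM elsewhere, smooth muscle genes (3 of 8) to 93.7 and 48.1 to 74.6 CPM. Of these, Col1a2, a collagen chain, had 2169 CPM in PBS replicate 1 and 736.6 to 1035 CPM in the other mice (log2 fold change -0.50), and Vim had 163.6 and 291.0 to 450.9 CPM (0.42). Endothelial genes (2 of 5 tested) summed to 50.8 CPM in PBS replicate 1 and 165.5 to 223.3 CPM elsewhere, immune genes (5 of 13) to 77.8 and 103.7 to 163.9 CPM. Enteric neuron and glia genes (1 of 8 tested) summed to 9.53 CPM in PBS replicate 1 and 29.2 to 46.8 CPM elsewhere, highest among them Ret, a receptor of enteric neurons (log2 fold change 0.43), and dissociation response genes (2 of 11) to 8.74 and 83.9 to 122.6 CPM. Enteroendocrine and tuft cell genes had at most 2.38 CPM in any mouse and 0 of 6 could be tested. Of the 38 list members tested, edgeR called 0 at an adjusted p under 0.05, and 2 had an unadjusted p under 0.05, against 11.7% of all IDs. Both were lower in AA mice, Lmod1 (log2 fold change -1.47) and Cd3e (-0.86). Both were highest in PBS replicate 1, at 65.1 and 57.2 CPM, and without it their log2 fold changes were -0.31 and -0.45 (unadjusted p = 0.403 and 0.0710 in edgeR's test). The part of these marker levels in the counts of both IDs was not tested.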

How the data were processed

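Colon RNA of 9 mice was sequenced from stranded, poly(A)-selected libraries. For each mouse the authors deposited a table of raw read counts by Ensembl gene ID. The paper's methods name Hisat and HTSeq on the Galaxy platform, and the processing notes name the builds GRCm38 and mm10. The annotation used for counting and the use of strand are not given in the sources used here. Of the 56941 IDs, 2147 belong to a series that GENCODE M21 does not hold. Symbols were matched for 51948 IDs.

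The quasi-likelihood test of edgeR 4.0.16 (R 4.3.3) was run on the counts after its filterByExpr filter, with TMM factors, which also scaled the CPM. P-values were adjusted by Benjamini-Hochberg over all 7423 tested IDs, and standard errors are the log2 fold change over the root of the F statistic. DESeq2 1.42.0 and limma 3.58.1 were alternatives. Log2 CPM (prior count 2) and the log2 ratio of both IDs (0.5 added to each count) were compared by two-sided exact permutation tests over mice (SciPy 1.17.1), without adjustment. Means of groups are of mice that the labels list as separate samples, and every pair of the 9 libraries differed by more than sampling noise (chi-square per degree of freedom of 4.60 or more). At these depths the counting error of either abundant ID is small, and intervals and floors (3 counts) cover counting error only. Tests were run on simulated data with known changes first.

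Exons of GENCODE M21 were moved by a fixed distance and their overlap with other exons was measured. Distances were scanned up to 400 kb in steps of 50 bp, with mean counts and overlapped bp on a log10 scale. No coordinates were converted between builds. Both IDs, the gene lists and the tests were chosen with earlier results of these data known. Genes named were both IDs, the IDs listed as Fcgbp and Ceacam1, those meeting these genes after the move, the 5 IDs most like each, and the 3 highest of each marker list, of which the text gives those with most counts and sums the rest. Hnrnpul1 and the genes at 0 were named after their values were seen.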

Additional observations from a re-analysis of the deposited data

Results flagged for a closer look

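In 34 groups of values, a library was singled out where its gap to the nearest of its group, divided by the range of the group, exceeded Dixon's 95% critical value, which chance does in about 1 in 20 groups. This was the case 4 times, 3 of them for PBS replicate 1. Abcf1 and Gsr were named for their likeness to the Axl-listed ID over all 9 mice, PBS replicate 1 included, so their values in that library are no separate evidence and the number of cases cannot be read against chance. The Axl-listed ID had 528.9 CPM in PBS replicate 1, against 7821 to 8744 CPM in the other PBS mice. Among the IDs most like it, Gsr had 19.06 CPM in PBS replicate 1, against 113.2 to 120.8 CPM, and Abcf1 had 0 CPM there, against 17.81 to 19.69 CPM. Abcf1 also had 20.74 CPM in AA replicate 3, against 25.28 to 26.42 CPM in the other AA mice. For the Samd4b-listed ID no library was singled out, since PBS replicate 2 lay between PBS replicate 1 and the others.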

How the results depend on the processing

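The log2 fold change of the Samd4b-listed ID stayed above 0 and past no adjusted threshold in all 18 alternatives, from 0.37 (limma-voom with sample weights) to 1.74 (replicate block), as did that of the Axl-listed ID, from 0.48 to 1.29 (replicate block). With each mouse left out in turn they lay between 0.48 and 1.35 and between 0.48 and 1.06, lowest without PBS replicate 1. Without PBS replicate 2, AA replicate 2 and AA replicate 5, the groups did not overlap for either ID. This alternative was added after the data were seen. The difference in mean log2 CPM was 1.71 for the Axl-listed ID and 2.19 for the Samd4b-listed ID. For each, p was 0.1 in the exact permutation test, the smallest that 3 against 3 allow. For the Samd4b-listed ID the highest PBS value, 15946 CPM, lay close to the lowest AA value, 16247 CPM. With each mouse left out, the difference in mean log2 CPM of the Axl-listed ID lay between 0.48 and 1.83. Its p was 0.0357 or below in the exact permutation test. Groups that lie apart stay apart when a mouse is left out, so each p was the smallest possible and is no separate support. The log2 ratio of both IDs differed by 0.20 to 0.86 with each mouse left out, never past the threshold.

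The number of IDs with an adjusted p under 0.05 was 8 with DESeq2, 1 with library totals alone, 1 with limma-voom, and 0 to 1 with each mouse left out. Without a filter on low counts it was 20, of 22166 IDs tested. At an unadjusted p under 0.05 there were 1634 of 22166 IDs without a filter, against 867 of 7423 with it. There were 413 to 1291 with each mouse left out, and 133 without the 3 mice above. Of the 867 IDs, 135 were higher in AA mice, against 333 of 707 without PBS replicate 1, 371 of 1175 with DESeq2 and 364 of 682 with limma-voom. The replicate number as a block, which also leaves out AA replicate 5 (413 IDs without that mouse and no block), left 67 IDs. Same-numbered mice did not all deviate together (r between -0.35 and 0.27 over 4 pairs). The column headers of the tables number the PBS mice higher by 1 than the labels. With the header numbers, added after the data were seen, r was between -0.43 and 0.37, and the block, which leaves out AA replicate 1 (546 IDs without that mouse and no block), left 97 IDs. Neither numbering was taken to pair the mice. With library totals alone the median log2 fold change of all IDs was 0.22, against 0.12. The cause of these shifts was not tested. The IDs listed as Fcgbp and Ceacam1 had too few counts for more to be said of them, and whether depth plays a part was not tested. The counting error of both abundant IDs was small.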
